A study of Mus musculus with 4 samples.

Results

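The 5 genes Irx1, Irx2, Hhex, Etv1 and Pou3f4 encode transcription factors associated with the alpha, delta and PP cells of the pancreatic islet. They were chosen by name and make up 5 of the 21594 gene symbols in the deposited matrices. The questions were how their RNA is spread over hormone-defined islet cells, and whether any of them was higher in beta cells of Atf4 mutant mice than in control beta cells. Single-cell RNA was counted in dissociated islets of 2-month-old mice, 2 pools per genotype. The mutants were Atf4F/F; Ins1Cre, with both Atf4 alleles floxed and a Cre recombinase driven from the beta cell gene Ins1. The controls were Atf4F/F, with the same floxed alleles and no Cre. No treatment was given in either group. Each pool held islets of several mice; the series' design names 2 males and 2 females per pool, and the protocol names 3 to 4 mice. Cells positive and negative for the tdT reporter shared a library. The tests therefore measured the spread between pools, not between mice.

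Islet cell types are told apart by the hormone they store, glucagon in alpha cells, insulin in beta cells, somatostatin in delta cells and pancreatic polypeptide in PP cells. Irx1 and Irx2 are Iroquois homeodomain factors known from alpha cells, and Hhex is a homeodomain factor required for somatostatin-producing delta cells. Etv1 is an ETS domain factor of the PEA3 family, and Pou3f4 (Brn4) is a POU domain factor that can activate the glucagon gene in cultured cells. Loss of Atf4, a factor of the integrated stress response, is of interest here because beta cells that lose identity can take up features of other islet cells.

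On mouse GRCm38 (mm10) with GENCODE vM21, Irx1 lies on chromosome 13 from 71957921 to 71963723 on the minus strand, and Irx2 lies on the same chromosome from 72628820 to 72634198 on the plus strand. A gap of 665.1 kb separates the pair, and it holds 6 annotated genes, 0 of them protein-coding. Hhex is on chromosome 19 from 37434810 to 37440731, Etv1 on chromosome 12 from 38779380 to 38870484, and Pou3f4 on chromosome X from 110814280 to 110817207, all on the plus strand. Pou3f4 has a single exon, while Etv1 has 13 annotated transcripts with up to 14 exons. No member overlapped another annotated gene.

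The stretches just before the start sites of Etv1, Irx2 and Hhex are printed here because these 3 genes mark different classes in the counts. They come from RefSeq on GRCm38.p6, are on the plus strand, run 5′ to 3′, leave out annotated exons, and have each CpG in capitals. The Etv1 stretch, chr12:38779832-38780081, is intronic to the longer annotated transcripts. The Irx2 stretch is chr13:72628570-72628819 and the Hhex stretch is chr19:37434591-37434809, both ending at the base before the annotated gene.
Etv1: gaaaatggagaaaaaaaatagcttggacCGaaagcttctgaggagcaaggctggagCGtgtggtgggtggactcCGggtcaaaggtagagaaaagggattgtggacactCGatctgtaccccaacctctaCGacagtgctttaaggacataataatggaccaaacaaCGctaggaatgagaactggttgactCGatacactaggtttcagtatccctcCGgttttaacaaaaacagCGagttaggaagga
Irx2: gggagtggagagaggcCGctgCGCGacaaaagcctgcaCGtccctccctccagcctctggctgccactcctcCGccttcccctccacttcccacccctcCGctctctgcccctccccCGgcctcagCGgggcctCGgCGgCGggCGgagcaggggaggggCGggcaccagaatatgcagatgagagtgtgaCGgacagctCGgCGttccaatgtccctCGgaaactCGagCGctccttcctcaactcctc
Hhex: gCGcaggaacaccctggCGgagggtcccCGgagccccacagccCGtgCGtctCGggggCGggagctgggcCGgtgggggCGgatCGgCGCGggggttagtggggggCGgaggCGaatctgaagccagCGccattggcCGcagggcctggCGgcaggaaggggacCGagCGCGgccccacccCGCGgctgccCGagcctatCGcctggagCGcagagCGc
The Etv1 stretch had a GC content of 46.4% and 9 CpGs in 250 bases, against 68.4% and 19 CpGs in 250 bases for Irx2 and 77.2% and 26 CpGs in 219 bases for Hhex. Over 32851 RefSeq windows of 250 bases the median was 52.4% GC and 6 CpGs. The amino acid response motif TGATGNAA was in 3.452% of these windows, the cyclic AMP response motif TGACGTCA in 1.546% and TATAAA in 12.37%, searched on both strands. None of these motifs was found in the 250 bases of Etv1 or Irx2. The table matched 4 of the 5 genes, and Irx1 was not among them.

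The 4 libraries held 13706563 to 17655893 UMIs in 2352 to 3272 barcodes each, and 6995 of 11114 barcodes passed a minimum of 500 genes and a limit of 20% mitochondrial UMIs. The 4 endocrine classes were set by their hormone genes, with an upper limit on markers of other cell types, and endothelial cells and macrophages by marker sums. No member was among these genes. The endocrine classes held 3936 beta, 714 alpha, 265 delta and 96 PP cells, with median depths of 7526, 3864, 2839 and 3872 UMIs. Gcg made up a median of 26.55% of the UMIs of an alpha cell, Sst 20.59% of a delta cell and insulin 41.33% of a beta cell. All 6 beta, 5 alpha, 3 delta and 2 PP markers were detected in the class they are listed for. This does not tell the classes apart. The lists include the hormones that set the classes, and all 6 beta markers were also detected in alpha, delta and PP cells. Between 41 and 82 cell barcodes were shared by each pair of libraries. In beta cells the targeted gene Atf4 had 2.38 CPM in mutant 1, 121 CPM in mutant 2, 336 CPM in control 1 and 368 CPM in control 2, where CPM is the gene's UMIs per 1e+06 UMIs of the class. An Atf4 UMI was found in 353 of 838 beta cells of mutant 2, against 16 of 759 in mutant 1. The 2 mutant pools thus differed in how much Atf4 RNA their beta cells kept, and each is given by itself.

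Irx1 and Irx2 were alpha cell genes. The alpha cells of mutant 1, mutant 2, control 1 and control 2 held Irx1 at 153, 176, 227 and 266 CPM (206 ± 50.9, SD, n = 4). It was at 0.214 to 1.10 CPM in beta cells, 0 to 8.33 CPM in delta cells and 0 to 29.2 CPM in PP cells, so alpha cells did not overlap any other class. Irx2 was at 161, 170, 199 and 248 CPM in alpha cells in the same order (194 ± 39.1, SD, n = 4). Its range was 1.25 to 3.22 CPM in beta cells, 8.33 to 29.8 CPM in delta cells and 11.9 to 45.4 CPM in PP cells. In a single edgeR fit over the 16 sums of sample and class, with the sample as a block, Irx1 was higher in alpha cells than in the mean of the other 3 classes by 5.98 log2 units (adjusted p = 6.55e-25). Irx2 was higher by 4.25 log2 units (adjusted p = 4.49e-23).

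The order of levels below alpha cells was not settled for Irx1. PP cells were above delta cells in 1 sample and below them in 2, and delta cells were above beta cells in 2 samples and below them in 2. The 8 Irx1 UMIs of PP cells came from 4 of 96 cells, and control 1 held 7 of them in 3 cells. Irx1 in delta cells rested on 3 UMIs in all. For Irx2, delta cells were above beta cells in 4 of 4 samples, while PP and delta cells exchanged places, with 2 samples each way. Irx2 in delta cells (-0.61 log2 units, adjusted p = 0.358) and in PP cells (0.45 log2 units, adjusted p = 0.653) did not pass the edgeR test against the other classes.

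In single alpha cells, 375 of 714 held an Irx1 UMI (52.5%) and 372 held an Irx2 UMI (52.1%). Both were seen in 45 of 137 cells of mutant 1, 64 of 244 of mutant 2, 57 of 174 of control 1 and 67 of 159 of control 2. After thinning every cell to 3000 UMIs, Irx2 was found in 45.2%, 41.2%, 51.2% and 52% of the Irx1-positive alpha cells of these libraries and in 39.7%, 44%, 42.6% and 44.4% of the Irx1-negative ones. At equal depth the share was higher in Irx1-positive cells in 3 of 4 libraries and lower in mutant 2. Endothelial cells held 0 Irx1 UMIs in 109 cells, which allows a pooled level of up to 9.62 CPM, and macrophages 0 in 65 cells, which allows up to 15.8 CPM, against 201 CPM in pooled alpha cells.

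Hhex was a delta cell gene among the endocrine classes. Delta cells of mutant 1, mutant 2, control 1 and control 2 had 391.5, 299, 359 and 405 CPM (364 ± 47.2, SD, n = 4), against 0.529 to 1.36 CPM in beta cells and 0 to 2.49 CPM in alpha cells. Delta cells were above every other class in all 4 samples, by 7.13 log2 units against the mean of the other 3 (adjusted p = 4.89e-24, edgeR). Of the 265 delta cells, 156 held a Hhex UMI (58.9%, exact 95% interval 52.7 to 64.8%), against 3 of 714 alpha cells (0.420%). Alpha and beta cells did not keep one order, with 2 samples each way.

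PP cells were uneven for Hhex. They held 2 UMIs in mutant 1, 0 in mutant 2 and control 1, and 8 in control 2, where they came from 3 of 14 cells. In those 3 cells the median Sst share was 1.52% of UMIs, against 0.0422% in the other PP cells of that library. The difference of PP cells from the other classes was 1.40 log2 units (adjusted p = 0.283, edgeR) and -0.23 without control 2 (adjusted p = 0.982).

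Outside the endocrine classes Hhex was also present in endothelial cells and macrophages, 2 cell types of the islet's vessels and resident immune system. It was found in 13 of 109 endothelial cells (16 UMIs, 51.3 CPM over the pooled cells, exact Poisson 95% interval 29.3 to 83.3) and in 9 of 65 macrophages (10 UMIs, 52.8 CPM, 25.3 to 97.2). Both pooled levels exceeded the 0.823 CPM of pooled beta cells (0.570 to 1.15), and the intervals did not overlap. The delta markers beside it in endothelial cells were Sst and Rbp4, summed to 153 to 441 CPM, with Ghsr at 0. Delta cells summed to 192970 to 211840 CPM for these markers and had 352 CPM of Hhex when pooled. Hhex in endothelial cells rested on 1 to 10 UMIs per library, and the rule for these cells kept Sst under 2% of UMIs. Lymphocytes held 3 Hhex UMIs in 2 of 5 cells, too few to set a level. The source of the Hhex RNA in these non-endocrine cells was not tested.

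Etv1 was shared by all 3 non-beta classes. PP cells had the highest level, with 528 CPM in mutant 1, 556 in mutant 2, 409 in control 1 and 344 in control 2 (459 ± 99.9, SD, n = 4). Alpha cells followed with 443, 400, 333 and 301 CPM (369 ± 64.0), and delta cells with 225, 347, 264 and 274 CPM (278 ± 51.0). Beta cells stood at 17.2, 15.0, 7.23 and 7.54 CPM. The order PP, alpha, delta, beta held in 4 of 4 samples, with mean ratios of neighbours of 1.24, 1.33 and 23.6. The step from PP to alpha was small, and the exact Poisson intervals of the 2 classes overlapped within each library. Those of alpha and delta cells overlapped in mutant 2, control 1 and control 2. The PP cell with most Etv1 UMIs held 30 of 98 in control 1 and 16 of 37 in mutant 2. It held 13 of 93 in mutant 1 and 4 of 29 in control 2. Against the mean of the other 3 classes, Etv1 was higher in PP cells by 2.02, in alpha cells by 1.66 and in delta cells by 1.02 log2 units, and lower in beta cells by -4.70 (adjusted p = 1.57e-13, 2.07e-16, 1.70e-07 and 2.58e-28, edgeR).

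In single cells, an Etv1 UMI was found in 69 of 96 PP cells (71.9%), 457 of 714 alpha cells (64.0%) and 129 of 265 delta cells (48.7%). These classes differed in depth. The pooled shares in the same order were 74.6%, 58.0% and 49.2% at 3000 UMIs per cell. At 6000 UMIs they were 90.3%, 80% and 84.75%, so the order of alpha and delta cells depended on the depth. Both Etv1 and Hhex were seen in 15 of 64, 32 of 84, 22 of 66 and 17 of 51 delta cells of mutant 1, mutant 2, control 1 and control 2. Thinned to 3000 UMIs, Etv1 was found in 4 of 21, 18 of 31, 11 of 18 and 8 of 14 Hhex-positive delta cells, against 8 of 31, 25 of 47, 17 of 28 and 13 of 22 of all delta cells. At equal depth the presence of Hhex thus went with no steady rise or fall in the share of cells with Etv1. Etv1 was at 1 UMI in 109 endothelial cells and at 0 in 65 macrophages.

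Pou3f4 was close to the detection limit. It had 16 UMIs in 14 of 714 alpha cells, 4 UMIs in 3 of 96 PP cells, 6 UMIs in 5 of 3936 beta cells and 0 in 265 delta cells, which allows a pooled level of up to 2.95 CPM. The alpha cell values were 5, 5, 5 and 1 UMIs in the 4 libraries. The filter on low counts left it out of the class and genotype tests, and with no filter it was called higher in alpha cells (3.32 log2 units, adjusted p = 0.0252, edgeR) and not in PP cells, where its difference was larger (4.15 log2 units, adjusted p = 0.172). PP cells were above alpha cells in 2 samples and below them in 2, at a mean ratio of 2.48. Its pooled level in alpha cells, 4.36 CPM (exact Poisson 95% interval 2.49 to 7.08), was above that in beta cells, 0.145 CPM (0.0533 to 0.316), intervals that cover counting error only. The level that delta cells allow lies within the alpha interval, so no difference between these classes was detectable at this depth.

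Of the 5 genes, 3 were called higher in alpha cells, 2 in delta cells, 1 in PP cells and 0 in beta cells. For the same test the share of all 8321 genes called higher was 15.9% in alpha, 9.77% in delta, 3.79% in PP and 24% in beta cells. All 4 members tested were called lower in beta cells, where 19.5% of genes were, 1 in alpha cells, where 12.4% were, and 1 in delta cells, where 7.17% were. Irx1 and Hhex did not pass the filter in beta cells and entered this fit through the classes where they are high, and the genes were chosen as non-beta factors, so nothing is read from these lower calls. The higher calls of Irx1 in alpha cells and of Hhex in delta cells share this limit. They describe how large the difference was and are no independent support for the classes of these genes. Beta cells also had 0 members higher at an unadjusted p under 0.05 and 0 in DESeq2. Library totals in place of TMM scaling moved the median gene of beta cells to -0.27 log2 units and left these directions as they were.

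**Figure D1:**
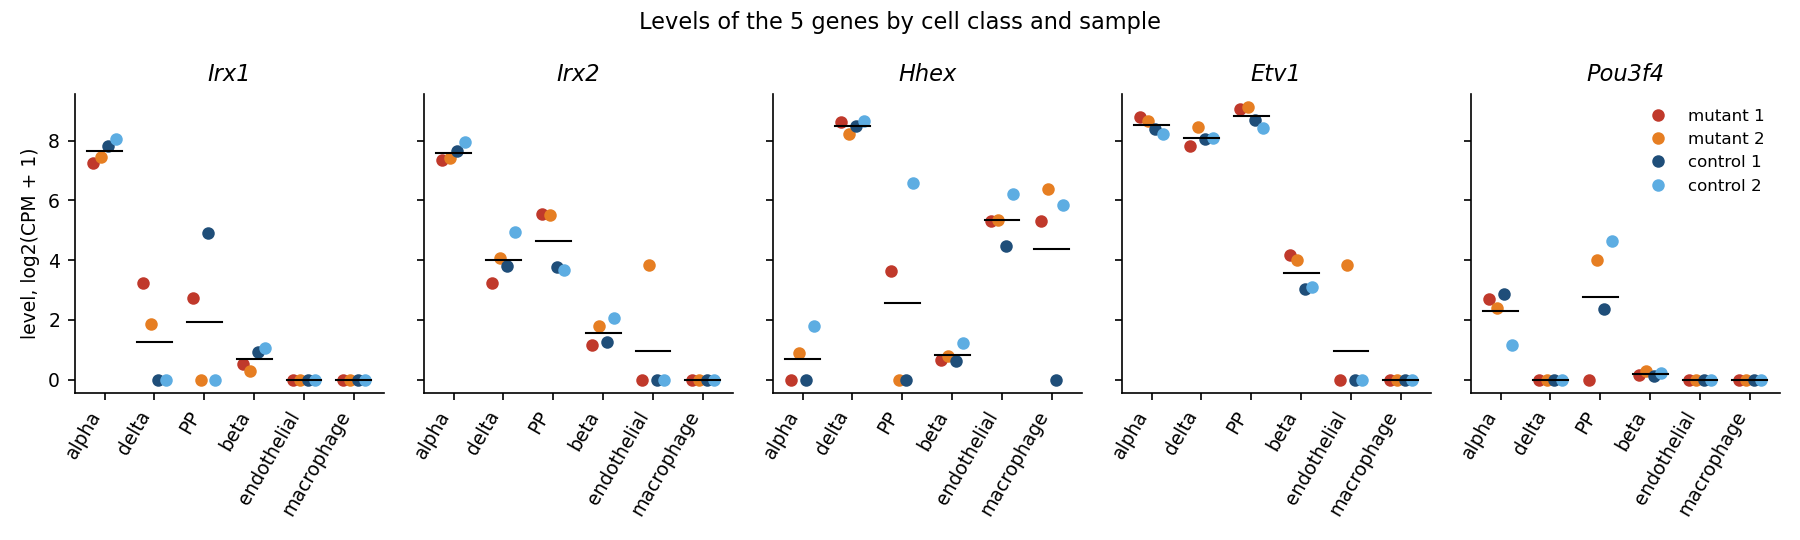
Level of each gene as log2(CPM + 1) in 6 cell classes, with a point for each of the 4 samples and a black line at the mean of the log values. Irx1 and Irx2 are highest in alpha cells, Hhex in delta cells with lower levels in endothelial cells and macrophages, and Etv1 is high in alpha, delta and PP cells at once, above all 4 beta cell values of 7.23 to 17.2 CPM.

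The genes whose levels over the 16 sums were most like each member are given as a description, since cells of a class and of a library share their source. Among 10835 genes, the 5 most like Irx1 were Nsg2 (Pearson r = 0.944), Id1, Rps2, Higd1a and Fam46d. Among the closest to Irx2 were Fgfr1 (r = 0.962), Rps16, Mast2 and Ndst4, and those closest to Hhex were Ly6h (r = 0.954), Kcnc2, Cd24a, Pcdh15 and Rnaset2b. Etv1 had the highest value with any gene, Gfra1 (r = 0.979), a co-receptor for GDNF, followed by Calb1, Gc, Celf4 and Rtn1. Cd24a was at 765 CPM in delta cells and at 3.62 to 11.4 CPM in the other classes. Gfra1 was at 88.4, 58.3 and 70.9 CPM in PP, alpha and delta cells and at 1.92 CPM in beta cells, an order of the non-beta classes unlike that of Etv1. For Pou3f4 the 5 were Ikzf5 (r = 0.905), Acsl4, Ddb1, Ppard and Nt5dc3, with counts too sparse to read further.

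A wider list of 32 islet transcription factors put the members in their setting, and 18 of the 32 passed the filter in the class comparison. In alpha cells 5 were higher and 4 lower, where 15.9% and 12.4% of all genes were. Fev was among those higher (1.90 log2 units, adjusted p = 8.96e-12, edgeR). Pdx1 (-3.62) and Nkx6-1 (-1.92), both beta cell factors, led those that were lower, with Insm1 (-1.05) and Pax6 (-0.62). In PP cells 3 were higher, where 3.79% of all genes were, among them Fev (2.31, adjusted p = 7.41e-08, edgeR). Rfx6 (-1.61), Insm1 (-1.26) and St18 (-0.60) were lower, and the share of all genes lower in PP cells was not counted. Etv1 and Fev were therefore both called higher in alpha and in PP cells, whereas Irx1 and Irx2 were called in alpha cells without passing in PP cells.

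In delta cells 7 of the wider list were higher, where 9.77% of all genes were. They were led by Isl1 (1.02, adjusted p = 8.02e-10, edgeR), Rfx6 (1.29), Insm1 (1.18) and Fev (1.89). Of all genes 7.17% were lower in delta cells, and among the 6 of the list were Nkx6-1 (-1.88) and Neurod1 (-0.88). Beta cells had 9 higher, where 24% of all genes were, and 6 lower, where 19.5% were. Those higher were led by Nkx6-1 (3.15), Pdx1 (3.04), Mnx1 (6.07) and Insm1 (1.13). Among those lower were Fev (-6.09, adjusted p = 4.48e-24, edgeR), Meis2 (-0.83) and Isl1 (-0.71). Fev, an ETS factor as Etv1 is, shared with it the pattern of all 3 non-beta classes, at 94.6 CPM in PP, 76.2 CPM in alpha and 82.7 CPM in delta cells against 0.957 CPM in beta cells. The median difference of the list was 0.02 log2 units in alpha, 0.12 in delta, -0.08 in PP and 0.21 in beta cells, against 0.02, 0.00099, -0.03 and 0.03 over all genes. Of the members' relatives, Irx3, Irx4, Irx6 and Etv4 were scarce in every class, and Etv5 was not. Irx3 had 0 UMIs in the 4 classes, Irx4 and Irx6 stayed at or below 4.17 CPM, and Etv4 at or below 4.33 CPM, while Etv5 was at 34.4 CPM in beta and 25.6 CPM in alpha cells. The beta cell factor Mafa, named after its values were seen, also had just 4 UMIs in 3936 beta cells.

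**Figure D2:**
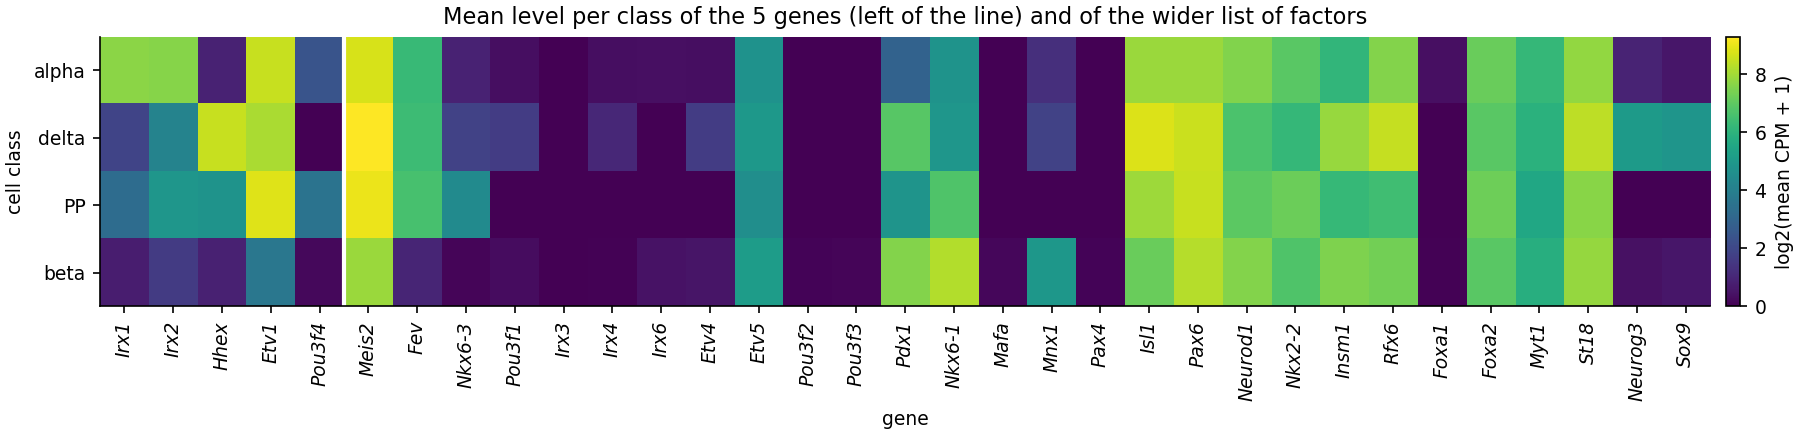
Mean level per class, as log2(mean CPM + 1) over 4 samples, of the 5 genes left of the white line and of 28 listed factors to its right. Etv1 and Fev are high in the 3 upper rows and low in beta cells, and Irx1 and Irx2 are highest in alpha cells.

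In beta cells no member passed the edgeR test of mutant against control, and Etv1 came nearest. Etv1 was at 17.2 CPM in mutant 1 (152 UMIs, exact Poisson 95% interval 14.6 to 20.2), 15.0 CPM in mutant 2 (140 UMIs, 12.6 to 17.7), 7.23 CPM in control 1 (82 UMIs, 5.75 to 8.98) and 7.54 CPM in control 2 (89 UMIs, 6.06 to 9.28). Both mutants lay above both controls, and the counting intervals of the groups did not overlap. The share of all genes that separate the groups in this way was not counted. The difference was 1.00 ± 0.172 (SE) log2 units, with an adjusted p = 0.0534 over the 13382 genes tested, just above the threshold of 0.05. It passed in 4 of 15 other settings, namely library totals (adjusted p = 0.0217), DESeq2 (0.0412), the stricter hormone gate (0.0385) and the replicate block (0.0425), and its adjusted p ranged up to 0.254 in the others, at 0.71 to 1.12 log2 units. Library totals as the scaling moved the median gene to 0.13 log2 units.

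The count of members called in beta cells was thus 0 of 2 tested by edgeR, at a background of 0.553% of genes called in either direction. Of the 2, 1 had an unadjusted p under 0.05, as did 14.2% of all genes, and 1 was called by DESeq2, as were 1.74% of all genes. The beta cells of mutant 1, mutant 2, control 1 and control 2 held Irx2 at 1.25, 2.46, 1.41 and 3.22 CPM, so the groups overlapped (-0.42 log2 units, adjusted p = 0.746, edgeR). Without control 2 the sign turned (0.24, adjusted p = 0.941), and it did so without mutant 1 (0.013, adjusted p = 0.997). Irx1 held 4, 2, 10 and 13 UMIs in the beta cells of the 4 libraries, and Hhex 5, 7, 6 and 16. The filter left both out, and with no filter Irx1 differed by -1.68 log2 units (adjusted p = 0.401, edgeR) and Hhex by -0.64 (adjusted p = 0.773). Pou3f4 had 6 UMIs in all 4 libraries and differed by 0.20 log2 units with no filter (adjusted p = 0.9745, edgeR). Irx1, Irx2, Hhex and Pou3f4 thus gave no higher value in mutant beta cells that passed a test.

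Per cell, an Etv1 UMI was found in 13.7%, 12.4%, 5.19% and 6.99% of all beta cells of mutant 1, mutant 2, control 1 and control 2. The mutant beta cells were deeper, with median depths of 8820 and 8758 UMIs against 6294 and 7743. Thinned to 3000 UMIs, the shares were 3.89% of 643 cells, 4.07% of 737, 1.41% of 993 and 1.89% of 901, with 116, 101, 259 and 186 shallower cells left out. The mutant mean was 3.98% and the control mean 1.65%, a difference of 2.33 percentage points. The exact two-sided permutation test of 2 against 2 samples gave p = 0.333, the smallest value it can give. In single cells at 3000 UMIs, 0 of 30 endothelial cells and 0 of 27 macrophages held an Etv1 UMI, which allows shares of up to 10.0% and 11.1%, above the beta cell shares. Without thinning, the share was 1 of 109 endothelial cells (0.917%, exact 95% interval 0.0232 to 5.01%), below that in each beta cell library, and those cells were shallower.

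Other endocrine RNA in beta cells was measured beside this. Gcg was at 479, 392.5, 382 and 621 CPM in the beta cells of mutant 1, mutant 2, control 1 and control 2, Sst at 198, 295, 288 and 536 CPM, and Ppy at 215, 87.4, 196 and 175 CPM. The summed alpha markers (5 of 5 detected) were at 1991, 1633, 1301 and 1680 CPM, the delta markers (3 of 3) at 219, 332, 356 and 602 CPM, and the PP markers (2 of 2) at 466, 316, 497 and 453 CPM. These sums overlapped between the groups for alpha and PP markers, and both mutants were below both controls for delta markers. Of the marker lists of other cell types, some also separated the groups in these cells and some did not. The summed duct markers (6 of 6 detected) were at 312 and 267 CPM in the mutants and 215 and 218 CPM in the controls, higher in the mutants as Etv1 was. They summed to 646 to 1562 CPM in PP cells, so this list does not mark duct cells alone. The acinar markers (6 of 6) were at 17.1 and 22.9 against 66.0 and 117 CPM and the macrophage markers (10 of 10) at 65.5 and 102 against 131 and 140 CPM. The lymphocyte markers (7 of 8) were at 8.61 and 11.4 against 20.3 and 17.5 CPM. The groups overlapped for endothelial markers (43.3 and 51.2 against 38.9 and 67.6 CPM) and stellate markers (8.04 and 9.83 against 4.32 and 12.5 CPM). The part of these cell types in the Etv1 difference was not tested, and the share of all genes that separate the groups in this way was not counted. Each member's levels in alpha, delta and PP cells were then scaled by how much of that class's hormone beta cells held. The scaled levels were summed over the 3 classes. The beta cell rule kept each of these hormones under 1%, which limits the hormone level used here. This hormone-scaled level was 1.39 to 1.96 CPM for Etv1, against measured levels 3.85 to 10.8 times as high. For Hhex it was 0.391 to 1.28 CPM, with measured levels 1.02 to 1.76 times as high, and for Irx1 0.271 to 0.683 CPM, with ratios of 0.788 to 2.13. For Irx2 the ratios were 3.17 to 8.08. Pou3f4, with 1 or 2 UMIs in each library, had ratios of 5.35 to 14.9, so a gene near the detection limit can reach values as large as those of Etv1. The ratio of Etv1 to Irx1 UMIs was 2.89, 2.27, 1.47 and 1.13 in the alpha cells of the 4 libraries and 38, 70, 8.2 and 6.85 in their beta cells, the last resting on 2 to 13 Irx1 UMIs.

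Beta cells with an Etv1 UMI were deeper, with median depths of 15357 to 19436 UMIs against 5978 to 7893 in those without one. Their Gcg level was 788 against 384 CPM in mutant 1, 397 against 391 in mutant 2, 399 against 380 in control 1 and 679 against 612 in control 2. Ppy was at 398 against 158 CPM in mutant 1, 74.6 against 90.7 in mutant 2, 306 against 183 in control 1 and 375 against 144 in control 2. Sst was at 265 against 177, 301 against 293, 326 against 283 and 935 against 475 CPM in the same order. Cells with Etv1 thus held more Ppy in 3 of 4 libraries, more Gcg mainly in mutant 1 and more Sst mainly in mutant 1 and control 2, while in mutant 2 all 3 hormones were near the level of the other cells.

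Mutant 2 kept Atf4 in part of its beta cells, so its cells above 8000 UMIs were split by their Atf4 UMIs, a split chosen after the data were seen. Etv1 was at 16.6 CPM in 230 cells with 0 Atf4 UMIs (exact Poisson 95% interval 12.7 to 21.1) and at 17.2 CPM in 135 cells with 3 or more (12.6 to 23.1). It was at 17.9 CPM in the 383 cells of mutant 1 with 0 Atf4 UMIs, and at 8.59 and 8.66 CPM in the cells of controls 1 and 2 with 3 or more. Within mutant 2 the intervals of these 2 kinds of cell overlapped nearly in full. Both levels lay above the intervals of controls 1 and 2 (6.58 to 11.01 and 6.76 to 10.9). The 86 cells of mutant 2 with 1 or 2 Atf4 UMIs were at 10.8 CPM (5.73 to 18.4), a level inside those control intervals. Control cells with 0 Atf4 UMIs were few, 13 in control 1 at 15.0 CPM (1.82 to 54.2) and 20 in control 2 at 9.07 CPM (1.10 to 32.8). Cells are not replicates, so no relation of Etv1 to Atf4 is read from this split.

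**Figure D3:**
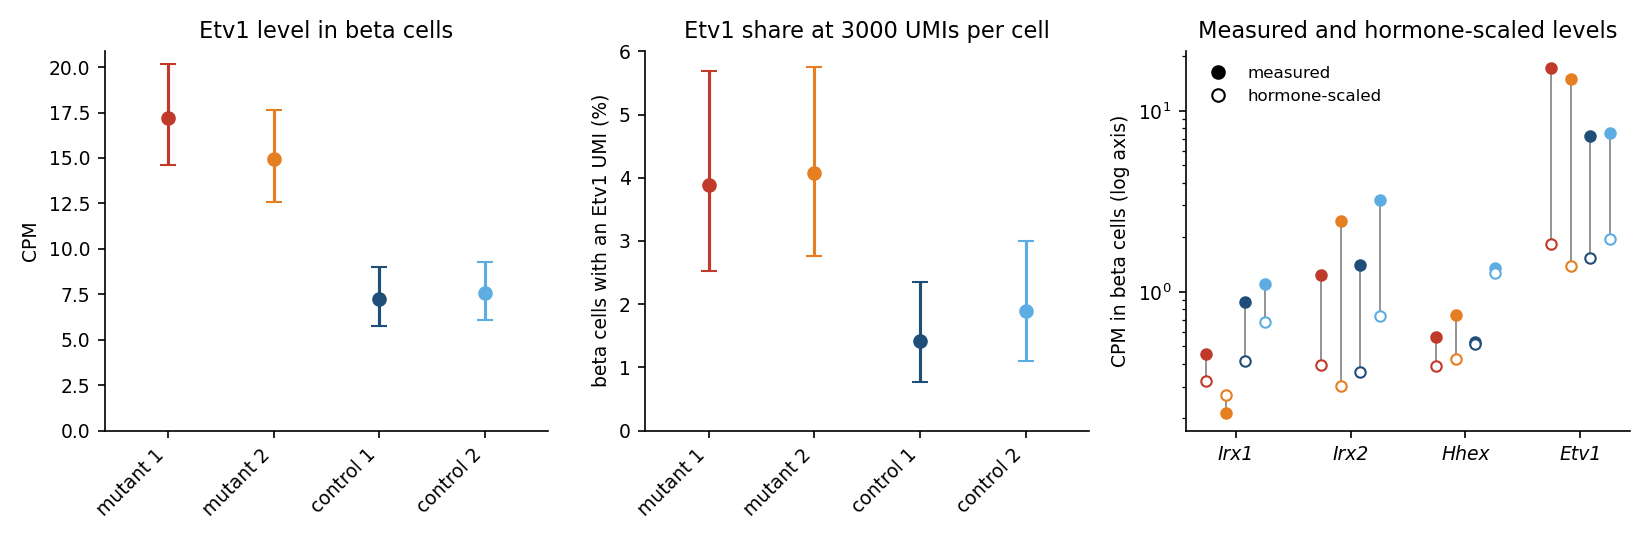
Left, Etv1 level in beta cells of the 4 pools in CPM with exact Poisson 95% intervals; middle, share of beta cells with an Etv1 UMI after thinning to 3000 UMIs with exact 95% binomial intervals; right, measured levels of 4 genes in beta cells (filled) and their hormone-scaled levels (open) on a log axis, joined per sample. Both mutants lie above both controls for Etv1, and Hhex sits close to its hormone-scaled level while Etv1 is 3.85 to 10.8 times above it.

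In the home classes the members showed no difference between genotypes that passed the test. In alpha cells Irx1 was at 153 and 176 CPM in the mutants and 227 and 266 CPM in the controls (-0.60 log2 units, adjusted p = 0.202, edgeR). Irx2 was at 161 and 170 against 199 and 248 CPM (-0.45 log2 units, adjusted p = 0.382, edgeR). Etv1 was at 443 and 400 against 333 and 301 CPM (0.39 log2 units, adjusted p = 0.405, edgeR). The groups did not overlap for any of these 3 genes, both mutants being below both controls for Irx1 and Irx2 and above them for Etv1. With 2 pools per group an exact permutation cannot give less than p = 0.333 for such an order. The share of all genes that separate the groups in this way was not counted. Of these 3 tested members edgeR called 0, at a background of 0.161% of 8691 genes called. All 3 had an unadjusted p under 0.05 (1 higher, 2 lower), as did 9.46% of all genes. DESeq2 gave an adjusted p for Etv1 (0.460) and none for Irx1 or Irx2, and called 3.45% of the genes to which it gave one. Across the other settings Irx1 ranged from -0.72 to -0.48 and Etv1 from 0.30 to 0.49 log2 units.

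In delta cells Hhex was at 391.5 and 299 CPM in the mutants and 359 and 405 CPM in the controls, so the groups overlapped (-0.18 log2 units, adjusted p = 0.910, edgeR). Etv1 was at 225 and 347 against 264 and 274 CPM, with the controls between the mutants (0.10 log2 units, adjusted p = 0.974, edgeR). Without mutant 2 both signs turned, to 0.015 for Hhex (adjusted p = 0.994) and -0.28 for Etv1 (adjusted p = 0.958). In PP cells Etv1 was at 528 and 556 against 409 and 344 CPM (0.54 log2 units, adjusted p = 0.882, edgeR), with 14 cells each in mutant 2 and control 2. By edgeR 0 of 2 members were called in delta cells and 0 of 1 in PP cells, at backgrounds of 0.0719% and 0.0923% of genes called. At an unadjusted p under 0.05 there were 0 and 1, where 6.16% and 5.58% of all genes were, and DESeq2 called 0 in both, against 0.024% and 0.138% of all genes.

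Etv1 thus had higher values in both mutants than in both controls in beta, alpha and PP cells, and did not pass the test in any of them. Such an order of 2 against 2 pools is by itself weak, since an exact permutation cannot give less than p = 0.333 for it. How many of all genes show it in these classes was not counted. In a fit chosen after the data were seen, the mutant effect on Etv1 in beta cells exceeded that in alpha cells by 0.60 ± 0.192 (SE) log2 units (adjusted p = 0.387, edgeR), that in delta cells by 0.87 ± 0.326 (adjusted p = 0.771) and that in PP cells by 0.54 ± 0.381 (adjusted p = 1). These differences did not pass, and 0 of 4 members tested were called in any of the 3, where 0.307%, 0.196% and 0.111% of genes were. At an unadjusted p under 0.05 the counts were 1, 1 and 0, where 6.93%, 4.9% and 3% of all genes were, and DESeq2 was not run on them. Free RNA and cells of another type in the same barcode were not tested for their part in the Etv1 difference.

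**Figure D4:**
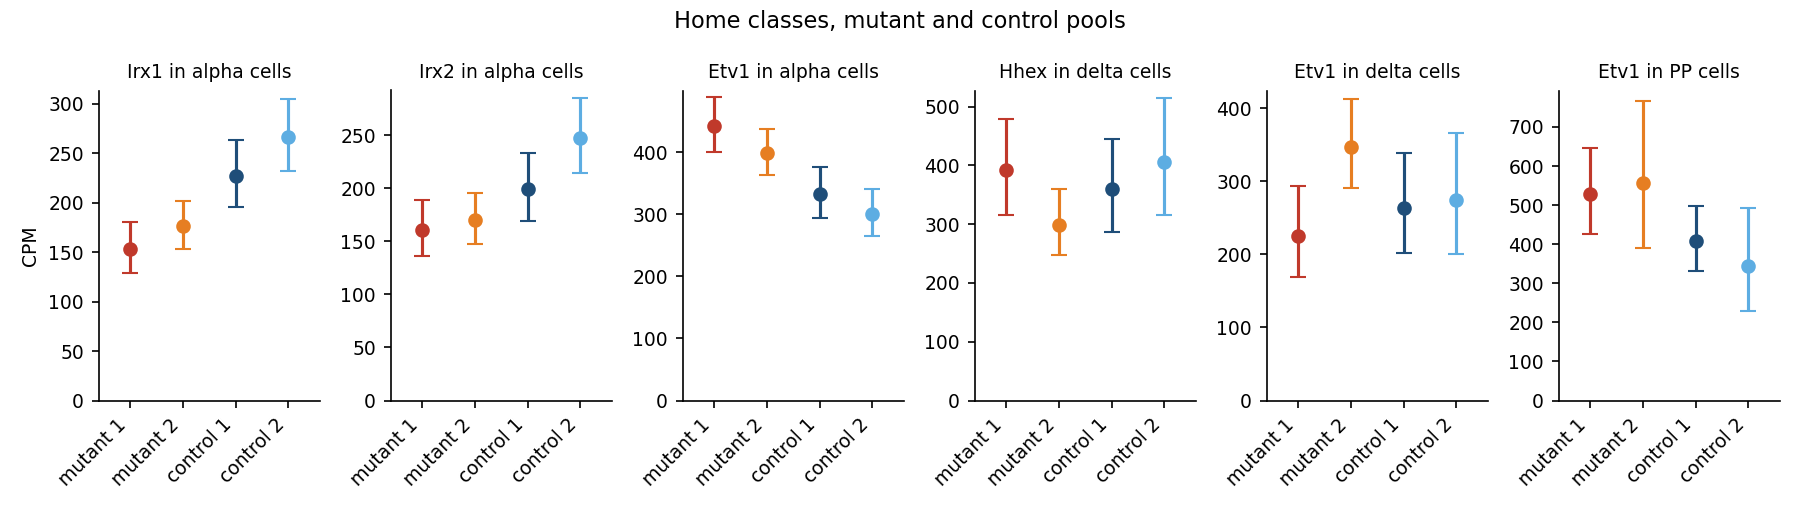
Levels in CPM of the members in their home classes, 1 point per pool with its exact Poisson 95% interval and all axes from 0. Both mutants lie below both controls for Irx1 and Irx2 in alpha cells and above them for Etv1 in alpha and PP cells, while Hhex and Etv1 overlap in delta cells.

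Of the wider list, 0 of 18 factors tested in beta cells passed between genotypes, where 0.553% of all genes did, and DESeq2 called 0, against 1.74%. At an unadjusted p under 0.05 there were 5 (1 higher, 4 lower), where 14.2% of all genes were. In alpha cells 0 of 16 passed, where 0.161% of all genes did, with 1 higher and 2 lower unadjusted, where 9.46% were. DESeq2 called 0 of the 5 to which it gave an adjusted p, against 3.45% of all such genes. In delta cells 0 of 13 and in PP cells 0 of 12 passed, where 0.0719% and 0.0923% of all genes did. Unadjusted there were 0 and 1, where 6.16% and 5.58% were. DESeq2 called 0 in these 2 classes as well, against 0.024% and 0.138% of all genes. Etv5, the PEA3 relative of Etv1 that beta cells express, was at 0.52 log2 units in beta cells (adjusted p = 0.189, edgeR). The list's median difference was -0.19 log2 units in beta cells, against 0.01 over all genes, with 5 of 18 factors above 0.

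Barcodes that held insulin together with another hormone were left out of the classes and carried the members of the non-beta cell type. Each was placed under its largest non-insulin hormone, which was Gcg in 738 barcodes, Sst in 328 and Ppy in 110. A further hormone in the same barcode was not excluded. Irx1 was at 51.7 ± 7.76 CPM (SD, n = 4) and Irx2 at 51.5 ± 10.6 CPM in barcodes with insulin and Gcg, and Hhex at 76.9 ± 13.1 CPM in those with insulin and Sst. Relative to the hormone, these levels overlapped those of the single-hormone cells. Irx1 had 0.643 to 1.10 UMIs per 1000 Gcg UMIs in alpha cells and 0.636 to 0.993 in barcodes with insulin and Gcg. For Irx2 the ranges were 0.658 to 1.02 and 0.555 to 0.941, and for Etv1 1.24 to 1.86 and 1.41 to 2.12. Hhex had 1.44 to 2.16 UMIs per 1000 Sst UMIs in delta cells and 1.24 to 2.01 in barcodes with insulin and Sst. Etv1 per 1000 Ppy UMIs was 2.33 to 3.37 in PP cells and 1.97 to 4.13 with insulin, the latter from as few as 7 barcodes in a library. Barcodes with insulin and Gcg also held 20.7 ± 8.08 CPM of Hhex, above the 0 to 2.49 CPM of alpha cells in all 4 libraries. Alpha cells had to hold at least 5 times as much Gcg as Sst, a limit that these barcodes did not have. The part of this unlike limit in the Hhex level was not tested. Doublets were not called, so whether these barcodes are single cells was not tested.

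**Figure D5:**
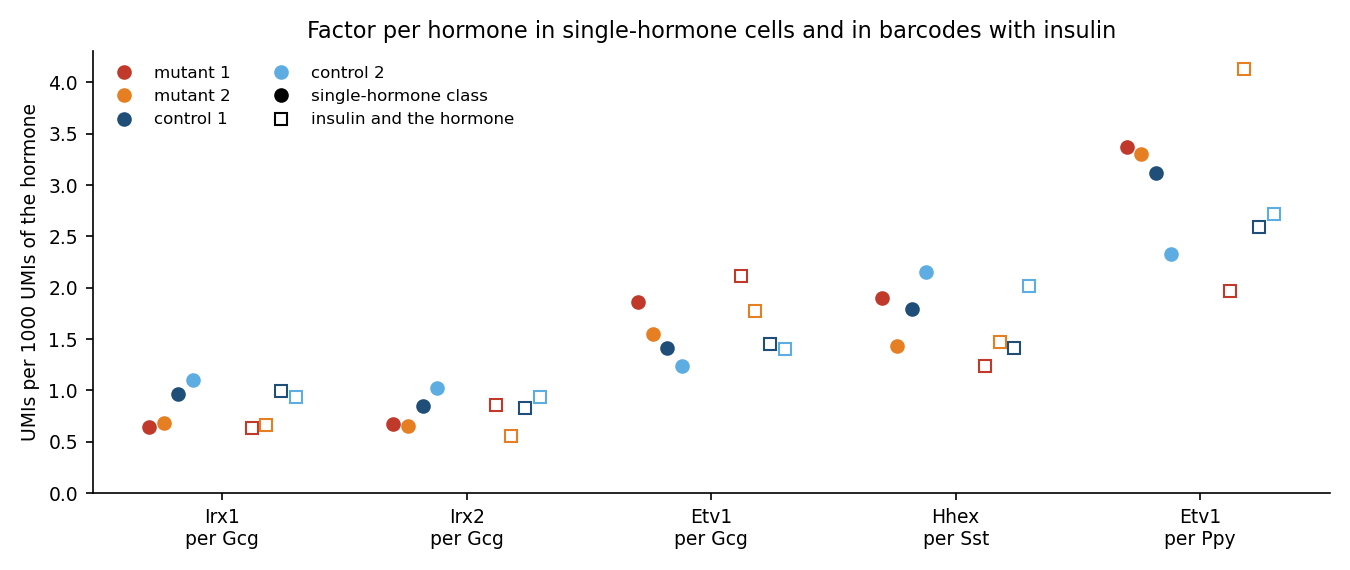
UMIs of a factor per 1000 UMIs of the hormone, 1 point per pool. Filled circles are cells of a single hormone, and open squares are barcodes with insulin where that hormone was the largest other one. The filled and open points overlap for all 5 pairs, for example 0.643 to 1.10 and 0.636 to 0.993 for Irx1 per Gcg.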

How the data were processed

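The values are UMI counts per gene symbol and barcode as deposited by the authors, whose processing used mm10 and Seurat, per the submitters' processing notes. The aligner and counter are not given in the sources used here. Per the labels' protocols, islet cells were encapsulated by inDrops with 10% human K562 cells added. K562 cells and the tdT reporter were not analysed here. The 5 genes and all lists were chosen with earlier results of these data known.

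An alpha, delta or PP cell had Gcg, Sst or Ppy at 2% of its UMIs or more, at least 5 times each of the other 2, and insulin under 10%. A beta cell had insulin at 15% or more and each other hormone under 1%. Endothelial, macrophage, lymphocyte and stellate markers were each under 0.5%. Other cell types were set by a marker sum of 0.5% or more. No doublet caller was run, and barcodes with insulin at 10% and another hormone at 2% or more were set aside. Counts were summed per sample and class (Python 3.11.15, scanpy 1.11.5) and tested with edgeR 4.0.16 (R 4.3.3) by quasi-likelihood tests with filterByExpr, TMM scaling and Benjamini-Hochberg adjustment over all genes tested (threshold 0.05, two-sided). Class comparisons used 1 fit with the sample as a block, and genotype comparisons 1 fit per class. DESeq2 1.42.0 was an alternative. Each SE is the log2 difference divided by the root of its F value. The fits were tested on simulated data. Levels are CPM, counts per 1e+06 UMIs of the sum without TMM factors. A count of 0 allows up to 3 counts. Exact Poisson and Clopper-Pearson 95% intervals cover counting error only. Beta cell sums held 8829082 to 11797325 UMIs and PP sums 66535 to 239357, so the precision was lowest in PP cells. The alternatives were other scalings, tools, filters, gates and clusters, and leaving out each sample. All 5 genes are named in the class comparison and in the genotype comparison of beta cells. Of the wider list, up to 4 with the lowest p per test and direction among those called are named, and Etv5, Irx3, Irx4, Irx6, Etv4 and the CPM of Fev were added as relatives of the members. Some genes that the rule would name are not reported here.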

Additional observations from a re-analysis of the deposited data

How the results depend on the processing

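The count of 6 member and class pairs called higher kept within 1.5 times under every alternative run. In beta cells 0 members were called between genotypes, against 1 (Etv1) with library totals (1.12 log2 units), DESeq2 (0.997), the stricter gate (1.03) and the replicate block (0.997). Leaving out 1 sample gave 0.940 to 1.03 log2 units and no call. The count in alpha, delta and PP cells stayed at 0 in each setting, paired fits included, with no DESeq2 value for Irx1 and Irx2 in alpha cells. The replicate numbers did not pair the samples, since the correlations of same-numbered deviations were -0.034 to 0.028 over the 4 classes, and the block changed no other call. The difference in the share of beta cells with an Etv1 UMI, 2.33 percentage points at 3000 UMIs, was 6.96 without thinning, 3.71 at 6000 UMIs and 2.76 with the stricter gate. Some signs turned when 1 sample was left out, none of them past the threshold. The ranges of these fits in log2 units were, for PP cells against the other classes, -1.43 to 1.32 for Irx1 (turned without control 1), -0.29 to 0.84 for Irx2 (without mutant 1) and -0.23 to 1.96 for Hhex (without control 2). Between genotypes they were -1.07 to 0.24 for Irx2 in beta cells (without mutant 1 or control 2), and -0.37 to 0.015 for Hhex and -0.28 to 0.35 for Etv1 in delta cells (without mutant 2). Irx1 in delta cells against the other classes (-2.16 log2 units, adjusted p = 0.0416, edgeR) rested on 3 UMIs and lost its call in 6 alternatives, among them the fits without mutant 2, control 1 or control 2 (adjusted p = 0.0831, 0.619 and 0.112). The causes were not tested. A lone sample is assumed to vary like the other group, PP cells (14 to 38 per pool) limit what could be seen, and 2 pools per group cannot go below p = 0.333 in a permutation.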
